A study of Malus domestica with 18 samples.

Results

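The genes described here are 4 gene models of sorbitol metabolism and transport in apple, chosen by gene ID from the 2856 genes of the deposited expression table. They are sorbitol-6-phosphate dehydrogenase (S6PDH, MD10G1062300), a pair of sorbitol dehydrogenase-like models that overlap on the genome (SDH, MD01G1195300 and MD01G1195400), and polyol transporter 5-like (MD10G1080000). All came from the skin of "Golden Delicious" fruit, a cultivar whose unbagged fruit tends to russet, that is, to form a brown corky layer. Fruit was either enclosed at DAF20 (days after flowering) in a light-proof paper bag of 2 layers (T) or left exposed (CK), and skin was taken at DAF30 (CK1 and T1), DAF60 (CK2 and T2) and DAF150 (CK3 and T3). Each of the 6 groups had 3 libraries, 18 in all. The skin of 3 fruits was mixed for each sample, and CK and T were each replicated over 3 trees. It is not given whether a tree was sampled at more than one stage, or whether CK and T fruit came from the same trees.

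In apple and other plants of the rose family, sorbitol is a main product of leaf photosynthesis and a main form in which carbon travels to the fruit. S6PDH makes sorbitol-6-phosphate from glucose-6-phosphate and is the committed step of sorbitol synthesis, best known from green source tissue. SDH oxidizes sorbitol to fructose and is best known from sink tissue such as young fruit. Polyol transporters carry sorbitol across membranes together with protons, among other places in the phloem and in sink cells.

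S6PDH lies on chromosome 10 at 8403348 to 8407079 of the GDDH13 v1.1 apple genome, on the minus strand, and its best match in the deposited annotation is NADP-dependent D-sorbitol-6-phosphate dehydrogenase. The polyol transporter lies on the same chromosome at 11729498 to 11732735, on the minus strand. These are the 2 members of the 4 that were matched to a RefSeq gene, S6PDH under that symbol and the transporter under a locus symbol with the synonym MdSOT5. MD01G1195300 spans 25652 bp of chromosome 1 (29342987 to 29368638, plus strand), and MD01G1195400 spans 20954 bp (29358722 to 29379675, plus strand). The spans of these SDH models share 9917 bp. A further SDH-like model, MD01G1195000, lies on the opposite strand within the span of MD01G1195300, and shares 888 bp with MD01G1195400. Whether strand was used in counting, and how a fragment from a shared stretch was assigned, is not given in the sources used here, so the level of each SDH model may hold reads of another and is uncertain.

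The study measured the S6PDH gene by qRT-PCR as well, and placed it among its suberin genes, whereas the deposited annotation names it as the sorbitol enzyme. The primers below are those the study lists under this gene ID, and are shown because it is the member with the largest T-CK difference. They were not aligned to a genome here. Whether they also fit a second S6PDH gene of the table (MD05G1054800) was not tested. Each is written 5′ to 3′, and no base is set in capitals.
S6PDH forward primer: gttcactacccaatgcccaca
S6PDH reverse primer: tgccctcccaggtttgttg

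Levels are FPKM, the fragments mapped to a gene after division by its length and by the library's size, so they can be set side by side between genes. How many fragments a value rests on is unknown. Differences were tested with limma on log2(FPKM + 1), where a fold is understated for genes near or below 1 FPKM, over the 1399 genes with at least 1 FPKM in at least 3 libraries. A gene was called changed at an adjusted p (Benjamini-Hochberg over those genes) of at most 0.05. All 4 members passed this filter, S6PDH with 7 libraries at 1 FPKM or more, MD01G1195300 with 15 and the transporter with 18. MD01G1195400 passed with 4 libraries, all 3 of CK1 and 1 of CK2, so it entered only through the groups in which it was high. Its differences are therefore given as a description, with no call, and counts of members called are over the other 3. S6PDH entered through its 6 libraries of DAF150 and 1 of CK2. The table holds only genes that the authors had called when they set the T libraries as a whole against the CK libraries, 2246 lower and 610 higher in T. A lower level in T averaged over the stages is therefore a property of the selection, and it was -1.67 for S6PDH, -1.30 for MD01G1195300, -0.60 for MD01G1195400 and -1.89 for the transporter on the log2(FPKM + 1) scale, given with no test. Libraries of one group correlated at 0.895 to 0.959 and libraries of different groups at 0.296 to 0.938 over the genes tested. Ranges of libraries are given below as a description. The share of all genes tested whose CK and T ranges stay apart was not counted.

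S6PDH stayed below 0.5 FPKM in all skin at DAF30 and rose late in unbagged skin, where its mean at DAF150 was 39.1 times that of bagged skin. In CK1 its libraries measured 0.36, 0.31 and 0.46 FPKM, and in T1 they measured 0.43, 0.43 and 0.32 FPKM. In CK2 they measured 0.89, 1.21 and 0.76 FPKM, and in T2 they measured 0.50, 0.68 and 0.44 FPKM. The CK and T ranges overlapped at DAF30 and did not overlap at DAF60, where all libraries were still at or near 1 FPKM or below. In CK3 the libraries measured 158.02, 107.61 and 45.19 FPKM (103.6 ± 56.5, SD, n = 3), against 3.49, 2.25 and 2.21 FPKM in T3 (2.65 ± 0.73, SD, n = 3). The lowest CK3 library lay far above the highest T3 library, and the CK3 libraries differed among themselves by more than the T3 libraries did.

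At DAF150 the level of S6PDH fell by 4.69 on the log2 scale in T (95% interval -5.39 to -3.98, standard error 0.33, limma adjusted p = 4.1e-08), rank 3 among the falls of the 1399 genes tested. CK3 was the only group in which S6PDH was high. The selection of the table on T against CK therefore favoured this difference, its p-value and its rank. The differences at DAF30 (log2 fold change 0.02, -0.69 to 0.72, limma adjusted p = 1) and at DAF60 (-0.34, -1.05 to 0.37, limma adjusted p = 0.365) did not pass the test. The difference between T and CK at DAF150 was larger than at DAF60 by -4.35 (standard error 0.47, limma adjusted p = 3.6e-05) and larger than at DAF30 by -4.70 (limma adjusted p = 7.7e-06). The first of these was the largest negative difference between stages of all genes tested, and the other was the second-largest. Both were favoured by the selection in the same way. Between DAF30 and DAF60 the difference did not change beyond its error (-0.36, limma adjusted p = 0.585).

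Within unbagged skin, S6PDH rose from DAF60 to DAF150 by 5.58 on the log2 scale (limma adjusted p = 2.5e-09), a ratio of group means of 108.7. This was the fifth-largest rise among the genes tested, of which 17.7% rose and 39.7% fell. S6PDH passed the filter mainly through its DAF150 libraries, so this rank and its rises to DAF150 were favoured by the filter. The rise from DAF30 to DAF150 was 6.08 (limma adjusted p = 7.6e-10), and the change from DAF30 to DAF60 was 0.50 and did not pass (limma adjusted p = 0.243). Bagged skin showed a rise at the same stage that was far smaller, 1.23 from DAF60 to DAF150 (limma adjusted p = 0.008), a ratio of means of 4.91. The late rise was thus present in T skin, and the interaction above is the test of the gap between the rises. In the order of the means, CK3 stood first, then T3, CK2 and T2, none of which overlapped with its neighbour, and T1 and CK1 came last and overlapped.

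**Figure D1:**
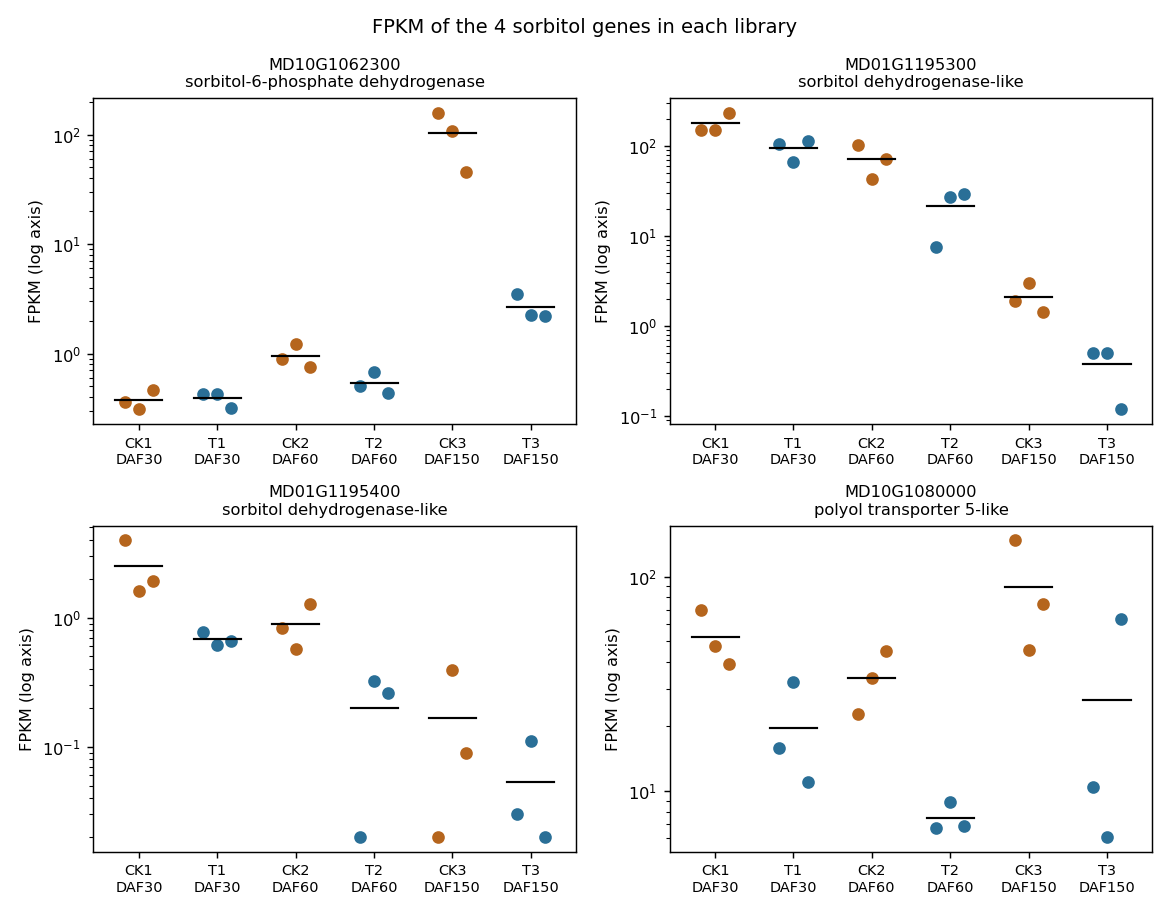
FPKM (log axis) of each of the 4 sorbitol genes in every library, by group, with CK in orange and T in blue, points for libraries and bars for group means. S6PDH stays at or below 1.21 FPKM up to DAF60 and reaches 45.19 to 158.02 FPKM only in CK3, MD01G1195300 declines from DAF30 to DAF150 in CK and in T, and a T3 library of the transporter at 63.45 FPKM lies within the CK3 range.

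MD01G1195300, the highest of the SDH-like models in this table, ran the opposite course in time, with its highest level at DAF30 and its lowest at DAF150. It was lower in T than in CK at DAF60. At DAF150 it was lower by a margin whose call was lost under several alternatives and held under others. CK1 libraries measured 151.32, 151.02 and 232.25 FPKM, and T1 libraries 105.94, 65.35 and 112.55 FPKM. CK2 libraries measured 102.38, 42.34 and 70.79 FPKM, and T2 libraries 7.60, 27.19 and 29.22 FPKM. CK3 libraries measured 1.92, 3.01 and 1.44 FPKM, and T3 libraries 0.51, 0.51 and 0.12 FPKM. At each stage every CK library lay above every T library, and the CK mean was 1.88, 3.37 and 5.59 times the T mean at DAF30, DAF60 and DAF150. How common such a separation is among these selected genes was not counted.

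By the test, MD01G1195300 fell in T at DAF60 (log2 fold change -1.82, 95% interval -2.75 to -0.89, standard error 0.44, limma adjusted p = 0.0018) and at DAF150 (-1.16, -2.09 to -0.23, limma adjusted p = 0.040), and it missed the threshold at DAF30 (-0.91, -1.84 to 0.01, limma adjusted p = 0.189). The call at DAF150 was lost without any single one of 5 of the 6 libraries of that stage, with adjusted p of 0.077 and 0.152 without CK3 replicates 1 and 2, and 0.064, 0.068 and 0.122 without T3 replicates 1, 2 and 3. It was lost as well with median centring (-0.70, limma adjusted p = 0.182), with quantile normalization (-0.87, limma adjusted p = 0.114) and with no filter on low values (limma adjusted p = 0.060). It held with 0.5 FPKM added in place of 1 (-1.57, limma adjusted p = 0.010) and with 0.1 FPKM added (-2.29, limma adjusted p = 0.0016). It also held with the compared groups alone (limma adjusted p = 0.0068). The call at DAF60 was lost when each library was centred on its median (-0.66, limma adjusted p = 0.212) and held under quantile normalization. None of the 3 differences between stages in the T-CK difference of MD01G1195300 passed the test, so its lower level in T was not shown to differ in size between stages.

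The decline of MD01G1195300 with age exceeded the error in both kinds of skin. In CK it fell by 1.36 from DAF30 to DAF60 (limma adjusted p = 0.018), and from DAF60 to DAF150 it fell by 4.49 on the log2 scale (limma adjusted p = 4.8e-07), and the mean at DAF30 was 83.9 times that at DAF150. The first of these calls was lost without CK1 replicate 3 (limma adjusted p = 0.074) or CK2 replicate 2 (limma adjusted p = 0.099). In T it fell by 2.26 (limma adjusted p = 0.0013) and then fell by 3.83 (limma adjusted p = 3.7e-06) over the same steps, and the mean at DAF30 was 249 times that at DAF150. From DAF30 to DAF150 it was the seventh-largest fall of CK and the fourth-largest fall of T among the genes tested. CK1 stood first in the order of the means, T1 and CK2 followed with ranges that overlapped, and T2, CK3 and T3 each lay below the group before.

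The overlapping model MD01G1195400 was measured near the floor of the table, with means that were likewise highest in CK1 and lowest in T3. Its libraries measured 3.96, 1.61 and 1.93 FPKM in CK1, against 0.77, 0.61 and 0.66 FPKM in T1. They measured 0.83, 0.57 and 1.28 FPKM in CK2, against 0.02, 0.32 and 0.26 FPKM in T2. In CK3 they measured 0.02, 0.39 and 0.09 FPKM and in T3 0.03, 0.11 and 0.02 FPKM, ranges that overlapped. In CK1 the level of MD01G1195400 was 0.83% to 2.62% of that of MD01G1195300 in the same library, and in T1, CK2 and T2 it lay between 0.26% and 1.81%. In CK3 it was 1.04% to 13.0% and in T3 5.88% to 21.6%, of a far lower level. A share of reads passed between the overlapping models was not measured.

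The T-CK difference of MD01G1195400 on the log2(FPKM + 1) scale was -1.0 at DAF30 (95% interval -1.48 to -0.53), -0.65 at DAF60 (-1.13 to -0.17) and -0.14 at DAF150 (-0.61 to 0.34). With median centring the values at DAF60 and DAF150 turned to 0.51 and 0.33. The CK and T ranges did not overlap at DAF30 and DAF60. The mean in CK was 3.68, 4.47 and 3.13 times that in T at the 3 stages, so the smaller log2 values at the later stages go with lower levels, at which the added 1 FPKM takes up most of the value.

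Among the SDH-like models of the table, which number 6, MD01G1195300 held nearly all of the signal while SDH was high. It took 96.7% or more of the summed FPKM of these models in every library of DAF30 and DAF60, when the sum ran from 7.79 to 234.65 FPKM. At DAF150 it took 53.7% to 72.7% in CK3, of a sum of 2.64 to 4.27 FPKM, and 29.3% to 66.2% in T3, of 0.41 to 1.16 FPKM. MD01G1195000, MD01G1195500, MD07G1262100 and MD07G1262300 stayed below 1 FPKM in all 18 libraries and were not tested. SDH genes of apple that the authors did not call are not in this table and were not analysed here.

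Polyol transporter 5-like was expressed at every stage, lower in T than in CK at DAF60 and DAF150. Its libraries measured 69.58, 47.48 and 39.21 FPKM in CK1, against 15.80, 32.08 and 11 FPKM in T1. They measured 22.79, 33.70 and 44.78 FPKM in CK2 and 6.70, 8.91 and 6.84 FPKM in T2. In CK3 they measured 147.62, 45.51 and 74.48 FPKM, and in T3 10.40, 6.09 and 63.45 FPKM. CK and T did not overlap at DAF30 and DAF60, whereas at DAF150 T3 replicate 3 lay above the lowest CK library. The CK mean was 2.65, 4.51 and 3.35 times the T mean at the 3 stages.

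The transporter fell in T at DAF60 (log2 fold change -1.99, 95% interval -3.32 to -0.67, standard error 0.63, limma adjusted p = 0.0096) and at DAF150 (-2.22, -3.54 to -0.89, limma adjusted p = 0.0081), and missed the threshold at DAF30 (-1.46, -2.78 to -0.13, limma adjusted p = 0.134). The DAF150 value was -3.16 without T3 replicate 3, and it no longer passed without CK3 replicate 1 (-1.77, limma adjusted p = 0.052) or T3 replicate 2 (-1.57, limma adjusted p = 0.061). The DAF30 difference passed (limma adjusted p = 0.040) when T3 replicate 3 was left out of the shared estimate of the spread. Both calls were lost under quantile normalization (-0.88 at DAF60 and -1.42 at DAF150), and the call at DAF60 was lost after median centring (-0.83). No change of the transporter with stage passed the test in CK or in T, and neither did any difference between stages in its T-CK difference. In CK its change from DAF60 to DAF150 was 1.26 (limma adjusted p = 0.097), and it passed without CK3 replicate 2 (1.66, limma adjusted p = 0.050) or T3 replicate 3 (1.26, limma adjusted p = 0.023). In the order of the means, CK3, CK1, CK2, T3 and T1 each overlapped with the next, and T2 came last with no overlap with T1.

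Leaving out MD01G1195400, the members called lower in T by limma numbered 0 of 3 at DAF30, 2 of 3 at DAF60 and 3 of 3 at DAF150, and 0 were called higher at any stage (1, 2 and 3 members had an unadjusted p under 0.05, all of them lower). Of all genes tested in the selected table, 12.4% were called lower and 2.07% higher at DAF30, 61.9% and 9.51% at DAF60, and 31.5% and 12.6% at DAF150. At DAF60 a lower level in T was thus the rule in this table, since the genes tested had a median log2 fold change of -1.06, against -0.12 at DAF30 and -0.37 at DAF150. Against that median on the log2(FPKM + 1) scale, the DAF60 difference of MD01G1195300 and of the transporter was larger in size. That of S6PDH and of MD01G1195400 was smaller. With 0.1 FPKM added in place of 1, the median was -1.64, and MD01G1195400 at -1.86 was then larger in size. S6PDH, at -0.71, stayed smaller. The study's own cut was stricter (adjusted p no higher than 0.001, with a fold of 2 or more). Every gene of the table, each member included, had met that cut in the study's own comparison of all T with all CK. Here the cut was set on the limma values of each stage, on the log2(FPKM + 1) scale. S6PDH at DAF150 was then the only member to meet it at any stage, where 15.5% of genes tested met it as lower, against 0.143% at DAF30 and 27.4% at DAF60. With median centring the all-gene medians at DAF30, DAF60 and DAF150 were 0.14, 0.10 and 0.096. Under quantile normalization they were 0.026, -0.12 and -0.061. With median centring the calls at DAF60 were 331 higher and 156 lower in place of 133 and 866, at DAF150 240 and 289 in place of 176 and 440, and at DAF30 44 and 119 in place of 29 and 173. With quantile normalization they were 214 and 216, 218 and 277, and 54 and 48. Because most of the selected genes were lower in T, such scaling removes their common fall by construction. The S6PDH call at DAF150 passed under both scalings, and its uncalled DAF60 difference turned to 0.82 with median centring and 0.45 with quantile normalization.

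**Figure D2:**
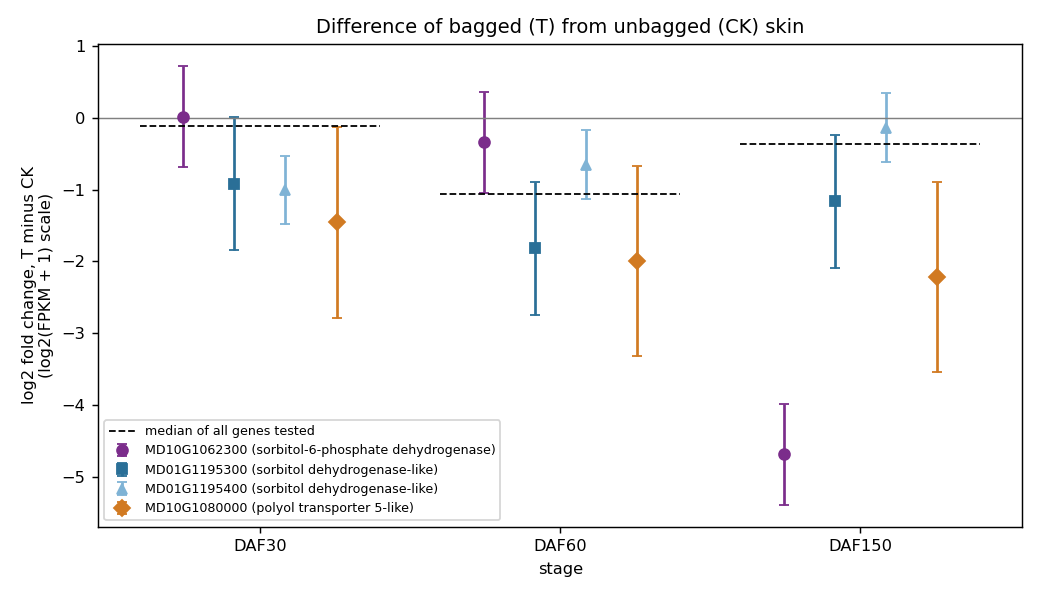
Log2 fold change of T against CK on the log2(FPKM + 1) scale for the 4 sorbitol genes at each stage, with 95% intervals from limma (n = 3 libraries per group) and dashed lines at the median of the 1399 genes tested. S6PDH at DAF150 stands at -4.69, while its intervals at DAF30 and DAF60 include 0, and the transporter lies between -1.46 and -2.22 at all stages.

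Over the stages, S6PDH rose and MD01G1195300 fell from DAF60 to DAF150 and from DAF30 to DAF150, in CK and in T, and the transporter was not called. These were 1 rise and 1 fall of 3 members in each comparison, the rise being that of a member which entered the filter mainly through DAF150. Among all genes tested, 34.7% rose and 35.8% fell from DAF30 to DAF150 in CK, as against 20.2% and 37.7% in T, and from DAF60 to DAF150 in T 18.2% rose and 16.2% fell. From DAF30 to DAF60, MD01G1195300 alone fell, 1 of 3 members in CK (13.5% of genes tested fell and 31.3% rose) and 1 of 3 in T (21.2% fell and 5.86% rose). The rises of S6PDH from DAF60 to DAF150 passed with no filter on low values too (limma adjusted p = 1.7e-08 in CK and 0.014 in T). Of the differences between stages in the T-CK difference, 0 of 3 were called by limma between DAF30 and DAF60, none with an unadjusted p under 0.05, where 37.2% of genes tested were called in the negative direction and 6.15% in the positive. S6PDH alone was called between DAF60 and DAF150 (5.15% in the negative direction and 14.2% in the positive). Between DAF30 and DAF150, S6PDH alone was called, in the negative direction (21.1%, with 13.4% in the positive).

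The level of S6PDH relative to SDH crossed over between DAF60 and DAF150. In CK1 the level of MD01G1195300 was 420, 487 and 505 times that of S6PDH in the 3 libraries, and in CK2 it was 115, 35.0 and 93.1 times. In CK3 the level of S6PDH was 82.3, 35.8 and 31.4 times that of MD01G1195300, and in T3 it was 6.84, 4.41 and 18.4 times. The mean log2 ratio of S6PDH to MD01G1195300 was -8.87 ± 0.14 in CK1, -7.88 ± 0.61 in T1, -6.17 ± 0.92 in CK2, -5.10 ± 1.08 in T2, 5.50 ± 0.75 in CK3 and 3.04 ± 1.06 in T3 (SD, n = 3 each, no test). CK and T overlapped in this ratio at DAF60 and did not overlap at DAF30 and DAF150. The order turned, too, since T lay above CK at the earlier stages and below it at DAF150. Set against MD01G1195400 in place of MD01G1195300, the mean log2 ratio was already above 0 at DAF60, at 0.14 in CK2 and 2.16 in T2.

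**Figure D3:**
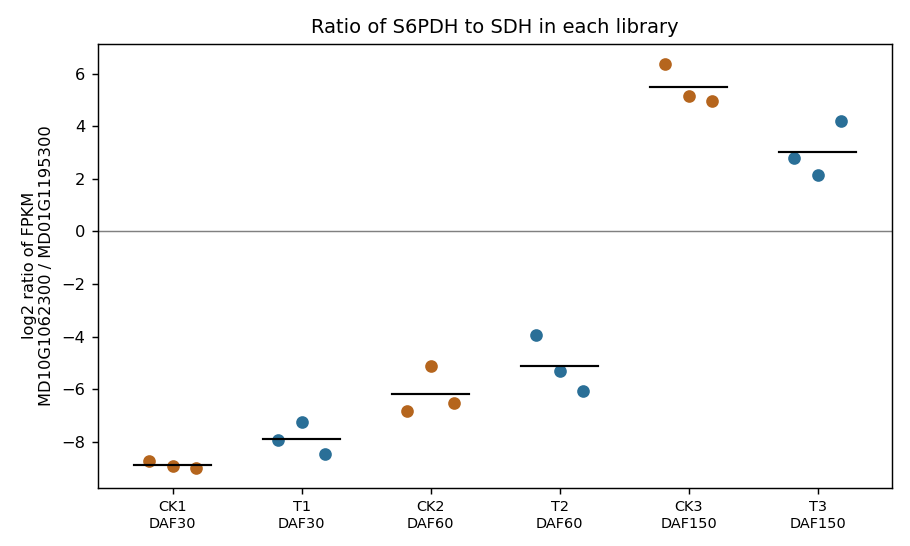
Log2 ratio of the FPKM of S6PDH to that of MD01G1195300 in each library, by group, with points for libraries and bars for group means. The ratio lies below 0 in all 12 libraries of DAF30 and DAF60 and above 0 in all 6 libraries of DAF150, higher in CK3 than in T3.

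Over the 18 libraries, log2(FPKM + 1) of S6PDH was most like that of CASP-like protein 1F2 (MD14G1150200, Pearson r = 0.971), thioredoxin-like protein HCF164 (MD02G1158600, 0.969) and a homolog of 1-aminocyclopropane-1-carboxylate oxidase (MD03G1032300, 0.968). All of these were highest in CK3, at 6.87, 6.68 and 5.19 FPKM on average. MD01G1195300 was most like an AAA-ATPase (MD17G1045600, 0.978), ethylene-responsive transcription factor 3-like (MD05G1204300, 0.976) and an uncharacterized protein (MD15G1151400, 0.975), each highest in CK1. The nearest named gene to MD01G1195400 was alkaline/neutral invertase A (MD13G1148300, 0.944), an enzyme that splits sucrose, behind the uncharacterized MD00G1034500 (0.953) and MD00G1144300 (0.951). The transporter had no close match, the nearest being an endo-1,3;1,4-beta-D-glucanase-like gene (MD13G1181800, 0.795), RAN GTPase-activating protein 1-like (MD11G1285100, 0.793) and the uncharacterized MD16G1102400 (0.781). Among the members, r was -0.623 between S6PDH and MD01G1195300, 0.805 between the SDH models, 0.514 between S6PDH and the transporter and -0.004 between MD01G1195300 and the transporter. These values describe libraries that share the same 6 groups and are given with no test.

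Of the other polyol genes, found by keyword in the annotation, 9 were in the table and 4 passed the filter. None of the 4 was called in T at DAF30 by limma (1 had an unadjusted p under 0.05). At DAF60 all 4 passed as lower in T, and at DAF150 3 did. Of all genes tested, 12.4%, 61.9% and 31.5% were called lower at DAF30, DAF60 and DAF150. MD01G1042500 and MD01G1042800 reached 1 FPKM only in CK libraries. These counts, also under the scalings below, thus hold genes that entered only through the group in which they were high. The list medians were -0.20, -1.47 and -1.5 in order of stage. After median centring the calls were 1 higher at DAF30, 1 lower at DAF60 and 2 lower at DAF150, and after quantile normalization they were 0, 2 lower and 2 lower. The members were chosen with these results known, and the list is drawn from genes selected for a difference between T and CK, so its direction is no independent evidence.

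The second S6PDH gene of the table, MD05G1054800 on chromosome 5 (9388099 to 9392164), was likewise highest in CK3, where its level was below that of the first. In CK2 its mean was above that of the first, at 1.25 against 0.95 FPKM. Its libraries measured 0.00 to 0.09 FPKM at DAF30 in CK and in T. In CK2 they measured 1.85, 1.75 and 0.15 FPKM, and in T2 0.02, 0.07 and 0.03 FPKM. In CK3 they measured 30.12, 8.17 and 5.99 FPKM, and in T3 1.54, 2.50 and 2.62 FPKM. The CK3 libraries lay above all T3 libraries, and CK3 replicate 1 was the highest, as it was for S6PDH and the transporter. MD05G1054800 fell in T at DAF150 (log2 fold change -1.98, standard error 0.42, limma adjusted p = 0.0011) and at DAF60 (-1.0, limma adjusted p = 0.044), where S6PDH was not called. It rose from DAF30 to DAF150 in CK (3.63, limma adjusted p = 1.2e-06) and in T (1.58, limma adjusted p = 0.0043). Its libraries at 1 FPKM or more all came from CK2, CK3 and T3, so these rises were favoured by the filter. Its T-CK difference was larger at DAF150 than at DAF30 (-2.04, limma adjusted p = 0.015), and the difference between DAF150 and DAF60 did not pass (-0.98, limma adjusted p = 0.247). Reads that fit both S6PDH genes could be split between them, and this was not tested.

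Probable mannitol dehydrogenases act on a related sugar alcohol and on aromatic aldehydes in other plants. The study listed MD01G1042500 and MD01G1042800 as cinnamyl-alcohol dehydrogenases and discussed them with its lignin genes. The deposited annotation names both as probable mannitol dehydrogenases, and which name holds was not tested. MD15G1308800, the highest of these in the table, averaged 8.91 ± 1.95 FPKM in CK2 against 0.87 ± 0.20 FPKM for T2 (SD, n = 3). It fell by 2.39 on the log2 scale at DAF60 (limma adjusted p = 3.6e-05) and by 2.20 at DAF150 (limma adjusted p = 4.0e-05). At DAF30 its difference was 0.73 and did not pass (limma adjusted p = 0.148), and the T-CK difference changed from DAF30 to DAF60 by -3.12 (limma adjusted p = 8.4e-04). MD01G1042500 and MD01G1042800 entered the filter only through CK libraries, in which they were high, so their differences are given with no call. They were -1.72 at DAF60 and -1.01 at DAF150 for MD01G1042500, and -1.22 and -0.60 for MD01G1042800. Probable polyol transporter 6 (MD02G1151000) was listed at 0 in 14 of 18 libraries and never above 0.20 FPKM.

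**Figure D4:**
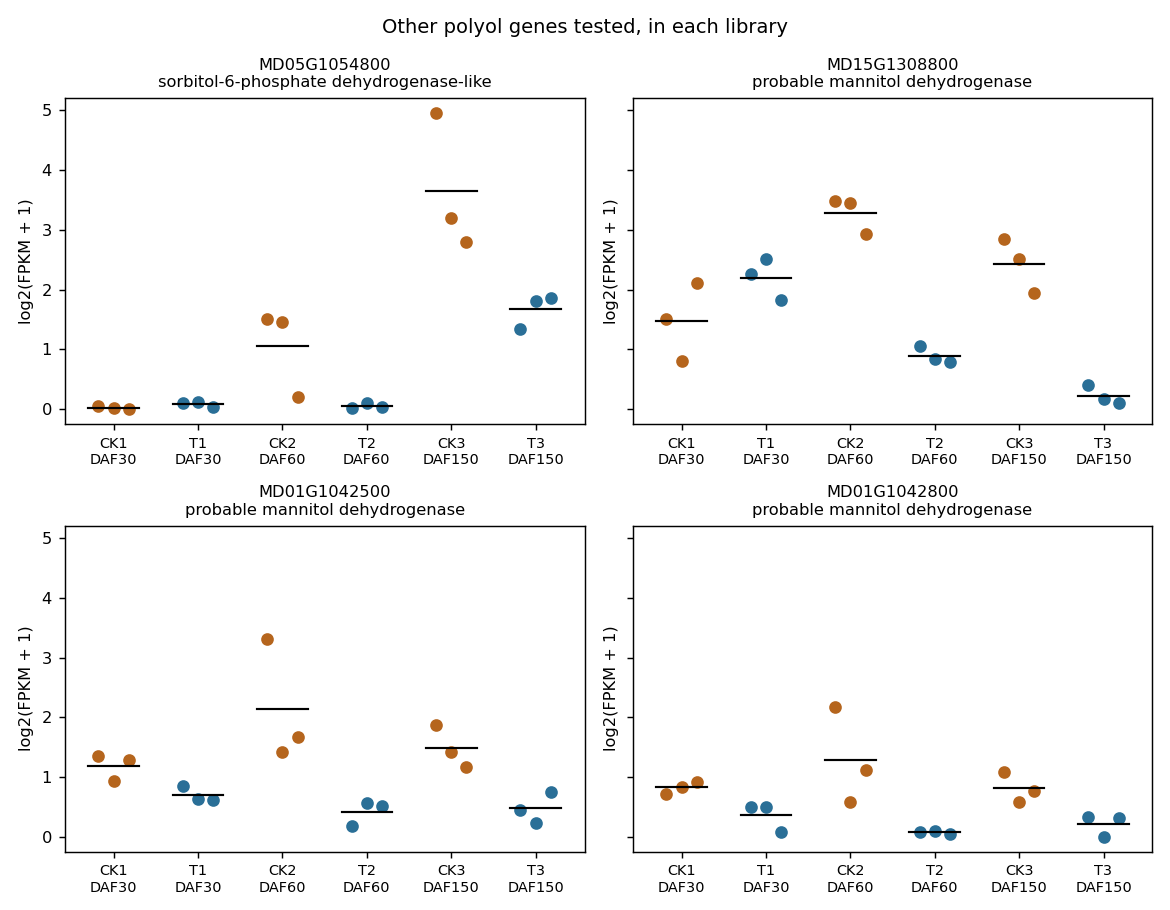
Log2(FPKM + 1) of the 4 other polyol genes tested in every library, by group, with CK in orange and T in blue, points for libraries and bars for group means. MD05G1054800 is high in CK3 and intermediate in T3, and MD15G1308800 lies below all CK libraries of the same stage in T2 and T3 but not in T1.

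Other carbohydrate genes gave a setting for the sorbitol genes. Their counts stand beside those of all genes tested, of which 12.4% were lower in T at DAF30, 61.9% at DAF60 and 31.5% at DAF150. The shares called higher were 2.07%, 9.51% and 12.6%. Genes of these and of the later lists that passed the filter through CK libraries alone were not set apart. Of 16 sucrose and hexose genes tested, 4 were lower in T at DAF30, 12 at DAF60 and 7 at DAF150, and 1 was higher at DAF150 (medians -0.16, -1.36 and -0.52). With median centring these were 4, 3 and 5 lower, with 1 higher at DAF60 and 2 at DAF150, and with quantile normalization 0, 4 and 3 lower, with 2 higher at DAF150. Chloroplastic fructose-bisphosphate aldolase 1 (MD10G1063600), an enzyme of the Calvin cycle, averaged 109.9 ± 19.2 FPKM in CK3 against 5.78 ± 0.90 FPKM for T3 (SD, n = 3), a log2 fold change of -4.03 (limma adjusted p = 2.2e-06). SWEET1-like (MD10G1013100, a sugar transporter) fell at DAF60 (-2.52, limma adjusted p = 6.7e-04), and the N3-like sugar transporter (MD16G1125300) rose at DAF150 (1.36, limma adjusted p = 4.0e-04). Of 5 trehalose and raffinose family genes tested, 4 were lower at DAF30, 4 at DAF60 and 0 at DAF150 (limma, 1 with an unadjusted p under 0.05), with 4, 1 and 0 when centred on the median and 0, 1 and 0 with quantile normalization. Galactinol synthase 2 (MD04G1190900), which starts raffinose synthesis, fell at DAF60 (-2.25, limma adjusted p = 2.4e-04), and 3 galactosyltransferase genes stand in this list and in the sucrose list. The only starch gene tested, isoamylase 3 (MD15G1376800), which trims starch, fell at DAF60 (-1.16, limma adjusted p = 5.4e-04) and DAF150 (-1.22, limma adjusted p = 4.2e-04), though not with quantile normalization at either stage nor with median centring at DAF60.

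Genes of green tissue were mostly lower in T at DAF150, as S6PDH was, and also at DAF60, where S6PDH was not called. From CK2 to CK3, 5 of the 18 tested rose and 1 fell (17.7% and 39.7% of all genes tested). In T against CK, 12.4%, 61.9% and 31.5% of all genes tested were lower at DAF30, DAF60 and DAF150. Of 18 photosynthesis genes tested, 0 were lower in T at DAF30, 16 at DAF60 and 17 at DAF150, and there were 8 and 15 lower at the later stages after median centring (and 2 higher at DAF60) and 10 and 15 lower after quantile normalization (and 2 higher at DAF30). At DAF30, 0 of the 18 had an unadjusted p under 0.05 in limma. Their summed level, over the 20 in the table, was 4321 to 5882 FPKM in CK3 against 503 to 886 FPKM in T3, and 2346 to 5066 FPKM in CK2 against 509 to 619 FPKM in T2. At DAF30 it was 3160 to 3849 FPKM in CK and 1825 to 5116 FPKM in T. In these bulk samples a smaller share of green cells and less RNA per cell cannot be told apart, and the part of either in the S6PDH difference was not tested.

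Markers of other layers of the skin were summed in each group as well. The 14 periderm and suberin genes of the table summed to 41.77 to 210.43 FPKM in CK2 and 23.89 to 31.35 FPKM in T2, and to 20.78 to 129.56 FPKM in CK3 as against 24.15 to 27.60 FPKM in T3, which overlapped. Of the 10 tested, 9 were lower and 1 higher in T at DAF60, and 1 was lower and 1 higher at DAF150. Any that passed the filter through CK libraries alone were not set apart, here or among the cuticle genes below. Among all genes tested, 61.9% were lower and 9.51% higher at DAF60, and 31.5% and 12.6% at DAF150. After either scaling the calls of the 10 were 2 lower and 1 higher at DAF60 and 0 lower and 1 higher at DAF150. At most 1 of the 14 was at 0 in all libraries of a group. The 17 epidermis and cuticle genes summed to 342.78 to 740.31 FPKM in CK2 and 121.32 to 206.96 FPKM in T2, and to 237.83 to 537.84 FPKM in CK3 as against 194.07 to 260.61 FPKM in T3, which overlapped. Of the 13 tested, 9 were lower and 2 higher in T at DAF60 (61.9% and 9.51% of all genes tested), and 2 were lower and 1 higher at DAF150 (31.5% and 12.6%). After either scaling these were 2 lower and 2 higher at DAF60 and 1 lower and 2 higher at DAF150. A single vascular marker was in the table, at 0 to 1.26 FPKM, and was not tested. The part of these layers in the levels of the sorbitol genes was not tested.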

How the data were processed

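Skin RNA was sequenced on the BGISEQ-500, and the authors aligned the reads with Bowtie2 to GDDH13 v1.1 and deposited FPKM values with 2 decimals. Bowtie2's version, the counting tool and its use of strand are not given in the sources used. The log2 ratios and q-values deposited by the authors were read only to learn how the table had been selected: for all T against all CK, the size of the log2 ratio is 1 or more and the q-value no higher than 0.001 in each of the 2856 genes. The design had assumed a table of all genes, and adjusted p-values here hold within the selected genes. Low values lay on whole steps in 45.5% to 70.0% of cases per library (tolerance 0.006 FPKM), too few to fix the depth, and no interval for counting error was computed.

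Log2(FPKM + 1) of the 1399 genes with at least 1 FPKM in at least 3 libraries was fitted with limma 3.58.1 (statmod 1.5.0, R 4.3.3), the 6 groups forming the model, with trend and robust moderation, after a check on simulated data. Libraries were taken as independent, with no term for tree. Alternatives were other pseudocounts (0.1 and 0.5), no filter or one at 5 FPKM, median centring, quantile normalization, a replicate block, no trend or robust moderation, the compared groups alone, and each library left out.

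The members and keyword lists were chosen with earlier results of these data known. Named genes were all members, the 3 genes most correlated with each (mean of at least 1 FPKM), and per list the 2 largest and 2 smallest changes at DAF60 and DAF150 with a mean of at least 5 FPKM, from which examples were taken. MD01G1042500, MD01G1042800 and the low SDH-like and transporter genes were named in addition, after their values were seen. Names were matched to RefSeq (assembly GDT2T_hap1) by accession, and primers came from the study's supplement. Figures used matplotlib 3.10.9 in Python 3.11.15.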

Additional observations from a re-analysis of the deposited data

Results flagged for a closer look

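The T-CK difference of S6PDH (MD10G1062300) differed between stages by the interaction term, by -4.35 between DAF60 and DAF150 and by -4.70 between DAF30 and DAF150. It was negative in every leave-one-out fit, from -4.85 to -3.96 and from -5.21 to -4.31. Since S6PDH was high in CK3 alone, the selection of the table on T against CK favoured such a difference.

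The T-CK difference of the SDH-like model MD01G1195400 was -1.0 at DAF30 and -0.14 at DAF150 on the log2(FPKM + 1) scale, a difference between stages of 0.87 (standard error 0.32). It is given as a description, since this model passed the filter only through CK1 and 1 library of CK2, in which it was high. In FPKM the ratio of the CK mean to the T mean was 3.68 at DAF30 and 3.13 at DAF150. The difference missed the threshold in 11 of the 18 fits that left out a library and with no filter on low values (limma adjusted p = 0.063).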

How the results depend on the processing

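The calls of S6PDH at DAF150, in its stage changes and in its interactions, and the falls of MD01G1195300 from DAF60 to DAF150, passed under all alternatives run. Scaling by these selected genes is distorted. The cause of each change below was not tested. MD01G1195400 had no value with a filter of 5 FPKM, and since it passed the filter used only through groups in which it was high, its calls below say only on which side of the threshold it lay.

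Deviations of same-numbered T and CK libraries from their group means correlated at -0.347 to 0.175 within a stage. Between stages the value reached 0.394 (CK2 and CK3, replicate 3). With 3 libraries per group these values cannot tell whether same-numbered libraries shared trees. The replicate block ended 2 calls, MD01G1195300 at DAF150 (-1.16, limma adjusted p = 0.051) and MD01G1195400 between DAF30 and DAF150 (0.87, limma adjusted p = 0.057), and changed no other.

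With a pseudocount of 0.1, MD01G1195400 gave -1.64 at DAF30 (no longer called), -1.34 from CK1 to CK2 (no longer called), -1.56 from T1 to T2 (now called), -0.22 for DAF60 against DAF30 (turned), 1.05 for DAF150 against DAF30 (no longer called) and -1.36 over the stages. S6PDH gave 1.13 from CK1 to CK2 (now called), and MD01G1195300 -0.41 for DAF150 against DAF60 (turned). The DAF150 against DAF30 call of MD01G1195400 was also lost with a pseudocount of 0.5 (1.04), with no filter (0.87) and with no trend or robust moderation (0.87), and that of MD01G1195300 at DAF150 with no filter (-1.16).

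With median centring, values at DAF60 were 0.82 for S6PDH and 0.51 for MD01G1195400 (both turned), and -0.66 for MD01G1195300 and -0.83 for the transporter (calls lost). At DAF150 they were -0.70 for MD01G1195300 (lost) and 0.33 for MD01G1195400 (turned). S6PDH from CK1 to CK2 turned to -0.062, MD01G1195400 lost its call from CK2 to CK3 (-0.031) and from T1 to T3 (-0.37), and the transporter was called from CK2 to CK3 (1.93) and turned from T1 to T3 (0.19). For DAF60 against DAF30, S6PDH (0.54) and the transporter (0.36) turned and MD01G1195400 was called (1.25), and for DAF150 against DAF60, MD01G1195300 (-0.040) and MD01G1195400 (-0.18) turned.

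With quantile normalization, S6PDH turned at DAF60 (0.45) and for DAF60 against DAF30 (0.38), and the transporter turned from T1 to T3 (0.14). Calls lost were MD01G1195400 (-0.092) and the transporter (-0.88) at DAF60, MD01G1195300 (-0.87) and the transporter (-1.42) at DAF150, MD01G1195300 from CK1 to CK2 (-1.04), and MD01G1195400 from CK2 to CK3 (-0.22) and for DAF150 against DAF30 (0.68). With only the groups compared, the transporter passed at DAF30 (-1.46) and from T1 to T2 (-1.16) and missed at DAF150 (-2.22, limma adjusted p = 0.053), and MD01G1195400 missed from CK1 to CK2 (-0.84). With MD01G1195400 as the SDH model, the log2 ratio of S6PDH to SDH was -2.64 in CK1, -0.80 in T1, 0.14 in CK2, 2.16 in T2, 10.0 in CK3 and 6.0 in T3.

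Leaving out one library at a time, the T-CK difference of S6PDH at DAF30 ranged from -0.017 to 0.061, that of MD01G1195400 at DAF60 from -0.78 to -0.51, that of MD01G1195300 at DAF150 from -1.32 to -0.97, and that of the transporter from -1.86 to -1.13 at DAF30 and from -3.16 to -1.57 at DAF150. From CK1 to CK2 MD01G1195300 ranged from -1.65 to -1.03. From CK2 to CK3 MD01G1195400 ranged from -0.83 to -0.55 and the transporter from 0.82 to 1.66. MD01G1195400 ranged from -0.57 to -0.38 from T1 to T2 and from -0.71 to -0.64 from T1 to T3, and the transporter from -1.07 to 0.53 from T1 to T3. For DAF150 against DAF60 the transporter ranged from -1.17 to 0.42, and for DAF150 against DAF30 MD01G1195400 ranged from 0.58 to 1.05. The calls over all genes ranged from 84 to 257 at DAF30, 806 to 1009 at DAF60 and 496 to 651 at DAF150.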
